A study of Mus musculus with 8 samples.

Results

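The genes described here are 37 transporters, brush border enzymes, receptors and metabolic enzymes known from the kidney proximal tubule, taken as a list of symbols. A gene was measured where the array's annotation gives a probe set, a group of short probes for 1 transcript, that symbol alone, and its value came from the probe set with the highest mean over the 8 arrays. Of the 37 genes 36 were measured, among 18193 genes in all, and 1, Ggt1, was not analysed here. Tmem27 was matched through its gene identifier to its current symbol, Cltrn. The study hybridised total RNA of 4 mouse epithelial lines to Affymetrix mouse expression arrays. Each line gave 1 resting array and 1 after 24 hours with recombinant human TGF-β1 and EGF, both at 3.0 ng/mL (stimulated). All cells had first been held for 24 hours in a modified K-1 medium with insulin and transferrin, so the resting cells were given these supplements too. mProx is labelled as a proximal renal tubular line and MCT as a renal tubular line, with no segment given. The mammary gland gave the lines NMuMG and EpH4, of which EpH4 carries the label of EMT resistance. EMT, the epithelial-mesenchymal transition, is the loss of epithelial features for mesenchymal ones, which TGF-β is widely used to induce. These are cultured lines, each represented by 1 array per condition, so a difference within 1 line has no replicate check.

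The proximal tubule takes back most of the filtered glucose, amino acids, phosphate, bicarbonate and water, and secretes organic anions and cations. Its apical brush border carries sodium-coupled transporters, peptidases that digest filtered peptides, and the receptors megalin and cubilin, which take up filtered proteins. The segment also makes glucose and activates vitamin D, and cultured tubular cells are known to lose many of these genes.

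Levels are given as log2(signal + 10.6) after quantile normalization, which gives each array the same distribution of values. The level 5.27, the 40th percentile of the mean levels of all probe sets, is called the filter level here, and a gene is called dim on an array where it is below it. Only genes whose mean over the 8 arrays reached the filter level were tested, 12697 in all and 16 of the 36. A gene can reach that mean through 1 line, as Enpep did through mProx, and the other 20 are described by their values without a test. Median deposited signals were 41.5 to 59.6 over the 8 arrays, and 67.3% to 71.2% of all genes were at or above the filter level on an array.

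At rest most of the proximal tubule genes were at the low end of the scale in all 4 lines, the kidney lines included. At or above the filter level were 16 of 36 in mProx (69% of all genes measured) and 21 in MCT (70.5%), against 19 in EpH4 (70.5%) and 15 in NMuMG (67.3%). The median resting level of the 36 genes was 5.17 in mProx, 5.43 in MCT, 5.34 in EpH4 and 5.05 in NMuMG, against 7.01, 7.18, 7.07 and 6.80 over all genes. At a level of 8 or more were 5 genes in mProx (40.9% of all genes), namely Aqp1, Enpep, Mme, Slc22a5 and Slc4a4, and 2 in MCT (41.9%), Slc22a5 and Mme. On all 8 arrays 27 of the 36 genes stayed under 7. Both resting kidney arrays were above both resting mammary arrays for 7 of 36 genes (19.8% of all genes) and below both for 3 (15.9%), shares that are near the background or under it. Lrp2 is among these 3 by the probe set used, while its other probe sets were higher in the kidney lines. At the filter level in a resting kidney line and no resting mammary line were 5 of 36 (13.9%, against 4.66% of all genes). These were Slc2a2, Slc22a8, Slc7a9, Slc47a1 and Dpp4, all at 5.81 or less. The reverse held for 5 genes as well, a count whose share of all genes was not computed.

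**Figure D1:**
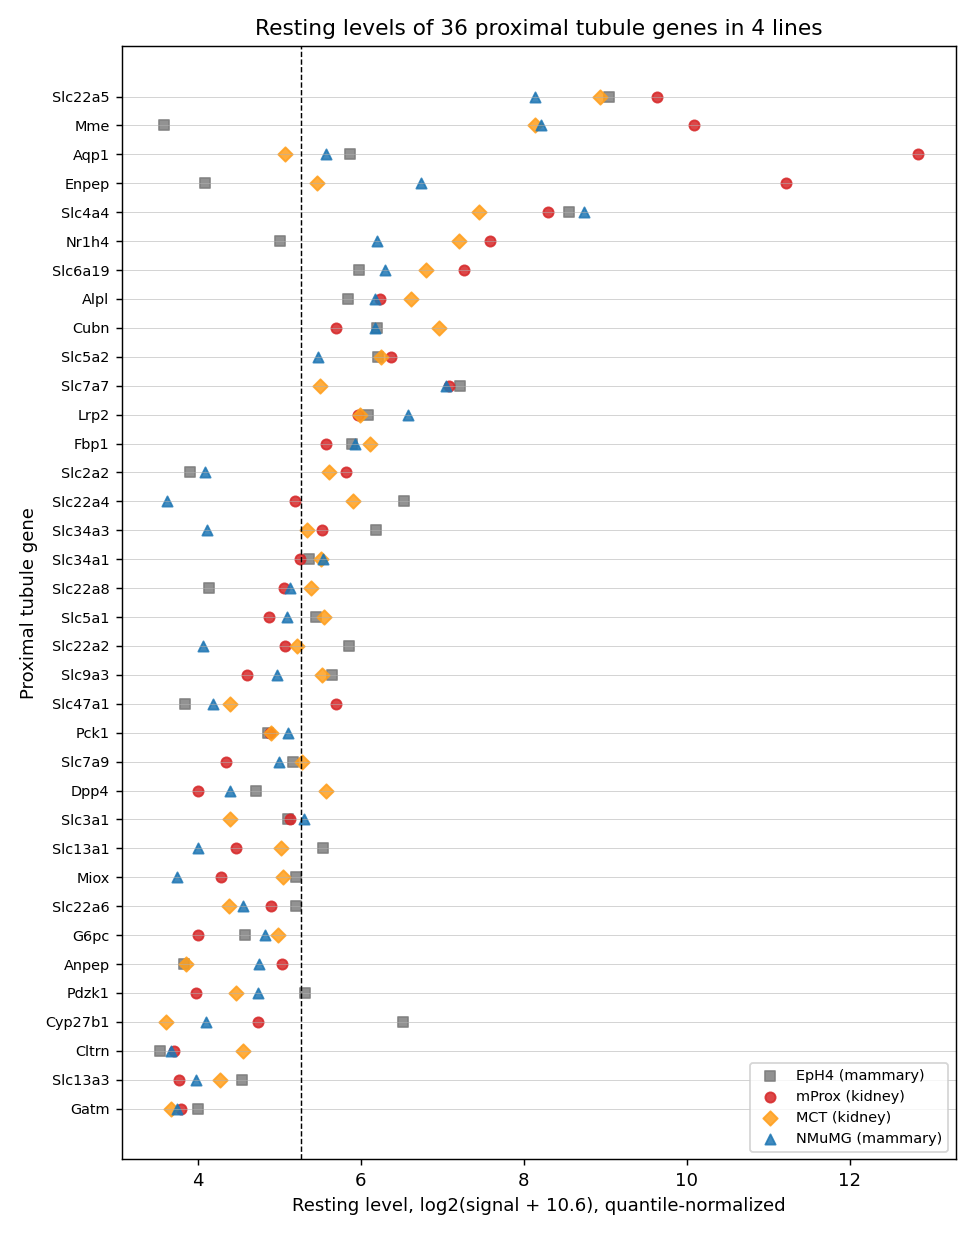
Resting level of each of the 36 measured genes (rows, ordered by the mean of the 2 kidney lines) on the horizontal axis as log2(signal + 10.6) after quantile normalization, 1 point per array, with the filter level of 5.27 as a dashed line. Aqp1, Enpep and Mme in mProx lie to the right, at 12.84, 11.22 and 10.09, while most genes crowd around the dashed line in every line.

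The water channel gene Aqp1 was the highest of the 36 on any array. Its resting level was 12.84 in mProx, 5.07 in MCT, 5.87 in EpH4 and 5.57 in NMuMG, so only mProx stood out, with a deposited signal of 7014 against 22.2 to 57.6 in the other resting lines. MCT, the other kidney line, was dim. The difference between resting kidney and mammary lines, 3.23 with an SE of 2.50, did not pass limma's test (adjusted p = 0.863) and rests on mProx, since without that line it was -0.65 and without MCT it was 7.12.

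The brush border peptidase genes were uneven. Enpep encodes aminopeptidase A, which trims angiotensin II. Its resting level was 11.22 in mProx, 5.47 in MCT, 4.09 in EpH4 and 6.73 in NMuMG. It was high in mProx, moderate in NMuMG, just above the filter level in MCT and dim in EpH4. Mme encodes neprilysin, an endopeptidase of the brush border, and was at 10.09 in mProx, 8.14 in MCT, 3.59 in EpH4 and 8.21 in NMuMG at rest. MCT and the mammary line NMuMG were at nearly the same level, and EpH4 was near the bottom of the scale. Nr1h4, the bile acid receptor FXR, was at 7.59 in mProx, 7.21 in MCT, 5.01 in EpH4 and 6.20 in NMuMG, higher in both kidney lines than in either mammary line. None of the 3 passed limma's test of resting kidney against mammary lines, with differences of 2.94 for Enpep (adjusted p = 0.841), 3.21 for Mme (0.773) and 1.79 for Nr1h4 (0.596). Among the 12697 genes tested 0 passed this comparison and 937 had an unadjusted p under 0.05, with Nr1h4 the only one of the 16 tested proximal tubule genes among them (4.73% of all genes were higher in kidney at that p). Without mProx the Enpep difference was 0.06, and without EpH4 the Mme difference was 0.90.

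Of the other peptidase genes, Anpep, encoding aminopeptidase N, was dim on all 8 arrays, the highest value being 5.03 in resting mProx. Dpp4, encoding dipeptidyl peptidase IV, was at 3.9998 in mProx, 5.57 in MCT, 4.71 in EpH4 and 4.39 in NMuMG at rest and at 3.91 in mProx, 5.72 in MCT, 3.72 in EpH4 and 5.45 in NMuMG after stimulation. It reached the filter level in MCT, and after stimulation in NMuMG. The other probe sets of Dpp4 were dim on every array and did not share this order. Of these, 1416697_at and 1459973_x_at had resting mProx highest, at 5.15 and 4.98, against at most 3.94 in the other resting lines. Alpl, the tissue-nonspecific alkaline phosphatase gene, was at 6.23 in mProx, 6.62 in MCT, 5.85 in EpH4 and 6.17 in NMuMG at rest, a range of 0.77 over the lines, and at 5.63 in mProx, 6.07 in MCT, 6.43 in EpH4 and 6.33 in NMuMG after stimulation.

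The endocytic receptor gene Lrp2, encoding megalin, had 3 probe sets that did not give the same pattern. The probe set with the highest mean, 1445901_at, was at 5.96 in mProx, 5.99 in MCT, 6.09 in EpH4 and 6.57 in NMuMG at rest and at 6.20 in mProx, 6.40 in MCT, 6.04 in EpH4 and 5.99 in NMuMG after stimulation, with no line apart. Both other probe sets had another pattern. Probe set 1452320_at was at 8.78 in mProx, 6.87 in MCT, 4.66 in EpH4 and 4.48 in NMuMG at rest and at 6.65 in mProx, 7.01 in MCT, 4.58 in EpH4 and 4.72 in NMuMG after stimulation. Probe set 1427133_s_at was at 8.91 in mProx, 6.14 in MCT, 3.60 in EpH4 and 3.84 in NMuMG at rest and at 6.50 in mProx, 6.27 in MCT, 3.81 in EpH4 and 3.76 in NMuMG after stimulation. By these probe sets megalin was high in resting mProx, lower in MCT and dim in both mammary lines, and its change after stimulation was -2.13 and -2.41 in mProx, while in MCT it was 0.14 and 0.13. Over the 8 arrays the 2 probe sets correlated with each other at 0.991 and with 1445901_at at -0.24 and -0.21, a description of arrays that share lines. In a limma fit of 27022 probe sets, added after the data were seen, neither passed the comparison of resting kidney with mammary lines (3.26 and 3.81, adjusted p = 0.513 and 0.574) or the response in the 3 lines without EpH4 (adjusted p = 0.676 and 0.588). Which probe set follows the transcript was not tested.

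**Figure D2:**
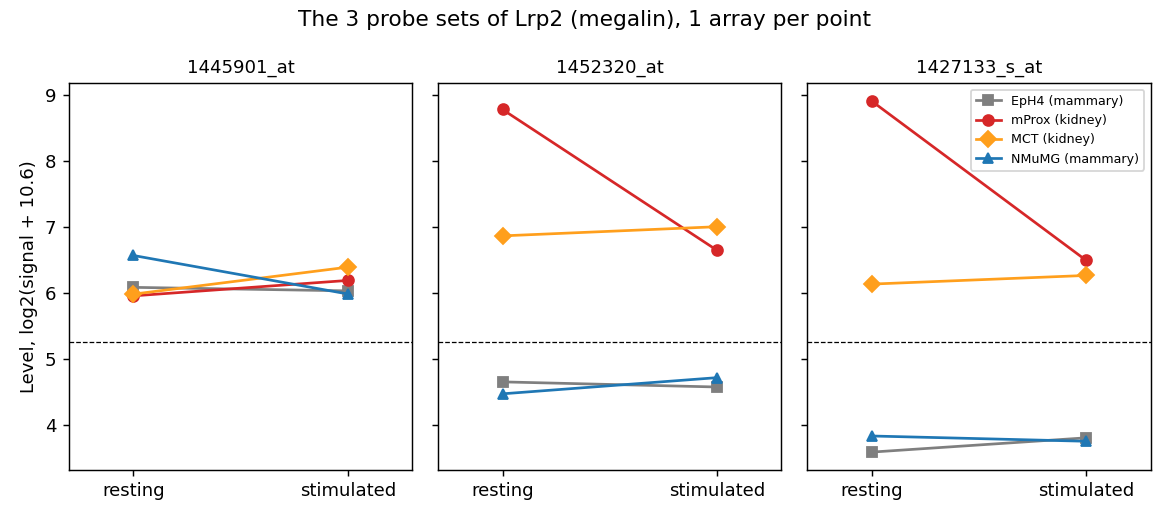
Levels of the 3 Lrp2 probe sets on the vertical axis, log2(signal + 10.6) after quantile normalization, for resting and stimulated cells, 1 point per array and 1 line per cell line, with the filter level of 5.27 dashed. In 1452320_at and 1427133_s_at resting mProx is at 8.78 and 8.91 and the mammary lines are dim, whereas 1445901_at lies between 5.96 and 6.57 on all 8 arrays.

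Cubn, encoding cubilin, the partner of megalin, was at 5.69 in mProx, 6.96 in MCT, 6.20 in EpH4 and 6.18 in NMuMG at rest and at 6.29 in mProx, 7.26 in MCT, 6.78 in EpH4 and 6.60 in NMuMG after stimulation. All 4 lines were higher after stimulation, by 0.29 to 0.60, without passing limma's test (mean 0.47, SE 0.17, adjusted p = 0.35), and its other probe set had -0.10 in mProx, -0.29 in MCT, 0.80 in EpH4 and 0.53 in NMuMG, with both kidney lines on the other side of 0.

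Among transporters, only a few were clearly above the filter level, and these were not higher in kidney lines as a group. Slc22a5, the sodium-coupled carnitine transporter, was at 9.64 in mProx, 8.94 in MCT, 9.05 in EpH4 and 8.14 in NMuMG at rest and at 8.92 in mProx, 8.11 in MCT, 9.19 in EpH4 and 8.08 in NMuMG after stimulation. Slc4a4, the basolateral sodium bicarbonate cotransporter, was at 8.30 in mProx, 7.45 in MCT, 8.56 in EpH4 and 8.74 in NMuMG at rest and at 8.28 in mProx, 7.26 in MCT, 8.48 in EpH4 and 8.47 in NMuMG after stimulation. Slc7a7, a basolateral exchanger of cationic amino acids, was at 7.08 in mProx, 5.49 in MCT, 7.22 in EpH4 and 7.04 in NMuMG at rest and at 7.45 in mProx, 6.37 in MCT, 6.99 in EpH4 and 7.44 in NMuMG after stimulation. At rest the mammary line EpH4 was above MCT for each of these 3 genes, and MCT was the lowest line for Slc4a4 and Slc7a7. Slc6a19, the apical neutral amino acid transporter, was at 7.27 in mProx, 6.80 in MCT, 5.98 in EpH4 and 6.29 in NMuMG at rest and at 6.59 in mProx, 6.43 in MCT, 6.29 in EpH4 and 6.13 in NMuMG after stimulation. At rest both kidney lines were above both mammary lines, by 0.90 on average (limma adjusted p = 0.786), and its second probe set was also higher in kidney, by 1.25, with no array at the filter level.

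Slc2a2, the basolateral glucose transporter, was at 5.81 in mProx, 5.61 in MCT, 3.91 in EpH4 and 4.09 in NMuMG at rest and at 3.74 in mProx, 3.80 in MCT, 3.74 in EpH4 and 3.96 in NMuMG after stimulation. Only the 2 resting kidney arrays reached the filter level, and both stimulated kidney arrays were as dim as the mammary ones. The mean stayed below the filter, so Slc2a2 was not tested. Slc47a1, an apical exporter of organic cations, was at 5.69 in mProx, 4.40 in MCT, 3.84 in EpH4 and 4.18 in NMuMG at rest and at 4.49 in mProx, 4.40 in MCT, 4.16 in EpH4 and 4.24 in NMuMG after stimulation. It reached the filter level on 1 array, resting mProx.

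The sodium-glucose cotransporter genes were low in every line. Slc5a2, the high-capacity cotransporter of the early tubule, was at 6.37 in mProx, 6.24 in MCT, 6.21 in EpH4 and 5.48 in NMuMG at rest and at 6.19 in mProx, 6.28 in MCT, 6.44 in EpH4 and 6.01 in NMuMG after stimulation. Slc5a1, its high-affinity relative, was at 4.87 in mProx, 5.55 in MCT, 5.46 in EpH4 and 5.10 in NMuMG at rest and at 5.35 in mProx, 5.45 in MCT, 5.39 in EpH4 and 4.91 in NMuMG after stimulation. The phosphate cotransporter genes gave like values. Slc34a1, the main apical phosphate cotransporter, was at 5.26 in mProx, 5.51 in MCT, 5.36 in EpH4 and 5.54 in NMuMG at rest and at 5.64 in mProx, 5.73 in MCT, 6.01 in EpH4 and 5.92 in NMuMG after stimulation. Slc34a3, a second one, was at 5.52 in mProx, 5.34 in MCT, 6.18 in EpH4 and 4.11 in NMuMG at rest and at 4.99 in mProx, 3.92 in MCT, 6.02 in EpH4 and 5.17 in NMuMG after stimulation. At rest Slc5a2 was only just higher in the kidney lines than in EpH4. The highest of the 8 arrays was an EpH4 array for Slc5a2, Slc34a1 and Slc34a3 and resting MCT for Slc5a1. The second Slc5a2 probe set, 1419166_at, was instead highest in stimulated MCT, at 6.67. At rest it was at 6.61 in mProx, 6.13 in MCT, 6.52 in EpH4 and 4.35 in NMuMG.

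Organic ion and further amino acid transporters were also low. Slc22a4, a transporter of ergothioneine and organic cations, was at 5.19 in mProx, 5.90 in MCT, 6.53 in EpH4 and 3.61 in NMuMG at rest and at 5.78 in mProx, 6.51 in MCT, 5.97 in EpH4 and 3.65 in NMuMG after stimulation. NMuMG and resting mProx were dim and the other arrays were above the filter level. Slc22a8, a basolateral organic anion transporter, was at 5.06 in mProx, 5.39 in MCT, 4.14 in EpH4 and 5.14 in NMuMG at rest and at 4.27 in mProx, 4.90 in MCT, 4.11 in EpH4 and 4.59 in NMuMG after stimulation. Its one value above the filter level was resting MCT. Slc7a9, the light chain of the cystine transporter, was at 4.35 in mProx, 5.28 in MCT, 5.16 in EpH4 and 5.00 in NMuMG at rest and at 4.57 in mProx, 5.40 in MCT, 5.33 in EpH4 and 4.91 in NMuMG after stimulation. Slc9a3, the apical sodium-proton exchanger, was at 4.60 in mProx, 5.53 in MCT, 5.65 in EpH4 and 4.97 in NMuMG at rest and at 5.30 in mProx, 5.57 in MCT, 6.11 in EpH4 and 5.28 in NMuMG after stimulation. Slc7a9 was dim in mProx, NMuMG and resting EpH4, and Slc9a3 was dim in resting mProx and resting NMuMG.

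Fbp1, the gluconeogenic enzyme fructose bisphosphatase, was at 5.57 in mProx, 6.11 in MCT, 5.89 in EpH4 and 5.92 in NMuMG at rest and at 5.67 in mProx, 5.68 in MCT, 6.46 in EpH4 and 6.23 in NMuMG after stimulation. All 8 arrays were above the filter level, within 0.89 of each other. The remaining 13 measured genes, Slc22a6, Slc22a2, Slc3a1, Slc13a1, Slc13a3, Anpep, Pck1, G6pc, Gatm, Miox, Cyp27b1, Pdzk1 and Cltrn, did not reach the filter level on a resting kidney array. Of these, Gatm, which starts creatine synthesis, was between 3.63 and 4.04 on all arrays. Cyp27b1, the vitamin D activating hydroxylase, was above the filter level only in EpH4, at 6.52 at rest and 6.05 after stimulation. Where both arrays of a line were dim, a small difference carries little information.

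After stimulation 3 of the 36 genes were at least 2-fold lower in each of mProx, MCT and NMuMG, namely Enpep, Mme and Nr1h4 (8.33%, against 0.154% of all genes measured), and 1, Slc13a3, was at least 2-fold higher in each (2.78%, against 0.132%). In both kidney lines Slc2a2 was lower as well, which makes 4 genes (0.533% of all genes). These counts are for quantile-normalized values and change with the scaling, since several changes lie near 2-fold. On the values as deposited 2 genes, Enpep and Nr1h4, were at least 2-fold lower in all 3 lines (0.148% of all genes) and 0 were higher (0.148%), with Mme at -0.75 in NMuMG and Slc13a3 at 0.97 in MCT. With arrays centred on their medians only Nr1h4 was lower in all 3 (0.121%) and only Slc13a3 higher (0.192%), with Mme at -0.92 in NMuMG and Enpep at -0.95 in MCT. Enpep, Mme and Nr1h4 were below 0 in each of the 3 lines under all 3 scalings. By line, 7 genes were at least 2-fold lower in mProx (3.14% of all genes), 7 in MCT (3.57%), 3 in NMuMG (2.6%) and 1 in EpH4 (2.19%). Lrp2 was not among the 7 in mProx by the probe set used, while its 2 other probe sets had -2.13 and -2.41 there. At least 2-fold higher were 1 in mProx (3.51%), 2 in MCT (3.68%), 3 in NMuMG (3.85%) and 0 in EpH4 (2.46%). On the values as deposited 6 genes were lower in EpH4 (4.37% of all genes), 0 higher in MCT (2.45%) and 5 higher in NMuMG (6.07%). After median centring 2 were lower in NMuMG (2.33%) and 1 higher (3.66%), and 2 were higher in mProx (3.99%). The median change of the 36 genes was nevertheless near 0 in each line, at -0.05 in mProx, -0.02 in MCT, -0.03 in EpH4 and 0.05 in NMuMG, against 0.02, -0.01, 0.00 and 0.04 over all genes. The lower genes in the 3 lines were known from earlier results of these data, so these counts are a description.

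Enpep had the largest mean difference of the 36 genes over mProx, MCT and NMuMG. Its deposited signal went from 2571 at rest to 133.6 after stimulation in mProx, from 76.3 to 2.0 in NMuMG, from 33.5 to 9.1 in MCT and from 7.8 to 2.7 in EpH4. Log2 changes were -4.16 in mProx, -1.07 in MCT, -0.35 in EpH4 and -3.07 in NMuMG. Stimulated mProx, at 7.06, was still above the other stimulated lines, which were all dim, so the sizes in MCT and NMuMG are not exact. The mean over the 3 lines was -2.77 ± 1.57 (SD, n = 3), with a limma adjusted p of 0.121. Without MCT it passed, at -3.62 and an adjusted p of 0.00831 in limma, while without mProx (-2.07, adjusted p = 0.244) and without NMuMG (-2.62, adjusted p = 0.164) it did not.

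Mme was lower after stimulation in the same lines. Its levels after stimulation were 8.22 in mProx, 5.66 in MCT, 3.45 in EpH4 and 7.11 in NMuMG, and its log2 changes were -1.87 in mProx, -2.49 in MCT, -0.13 in EpH4 and -1.11 in NMuMG. All 3 of mProx, MCT and NMuMG were lower, each from a level well above the filter, and EpH4 was at the bottom of the scale on both arrays. The second Mme probe set, 1422975_at, had -1.81 in mProx, -2.87 in MCT, -0.75 in EpH4 and -1.53 in NMuMG. The mean over the 3 lines was -1.82 ± 0.69 (SD, n = 3), with a limma adjusted p of 0.061, and without NMuMG it passed, at -2.18 and an adjusted p of 0.0194 in limma. Without mProx (-1.80, limma adjusted p = 0.136) and without MCT (-1.49, adjusted p = 0.0838) it did not.

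For Nr1h4 the stimulated levels were 6.17 in mProx, 5.65 in MCT, 4.10 in EpH4 and 4.10 in NMuMG. The log2 changes were -1.42 in mProx, -1.56 in MCT, -0.91 in EpH4 and -2.10 in NMuMG, lower in 4 of 4 lines. EpH4 was dim on both arrays and stimulated NMuMG was dim. The mean over the 3 lines was -1.69 ± 0.36 (SD, n = 3) with a limma adjusted p of 0.061, and over all 4 lines -1.50 with an SE of 0.25 and an adjusted p of 0.0995.

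Thus 0 of the 16 tested genes passed limma's test in the 3 lines, where 13 of 12697 genes did (0.102%), 5 higher and 8 lower, and 0 passed over all 4 lines, where 0 genes did and 1454 had an unadjusted p under 0.05. At an unadjusted p under 0.05 in the 3 lines, 5 of the 16 were lower (6.11% of all genes), Enpep, Mme, Nr1h4, Aqp1 and Slc22a5, and 1 was higher (6.44%), Slc7a7. The verdict on Enpep, Mme and Nr1h4 depends on the scaling. On the values as deposited, with no normalization between arrays, all 3 passed limma's test in the 3 lines, at adjusted p = 3.14e-13, 6.97e-07 and 5.21e-05, and centring each array on its median gave 0.053, 0.0349 and 0.0224. Their log2 differences were close under these settings, -2.70, -1.80 and -1.76 on the deposited values and -2.65, -1.74 and -1.71 after centring. Deposited values carry array-wide shifts, with a median change over all genes of -0.08 in mProx, -0.19 in MCT, -0.25 in EpH4 and 0.29 in NMuMG, and this count had 216 genes passing, against 85 after centring.

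**Figure D3:**
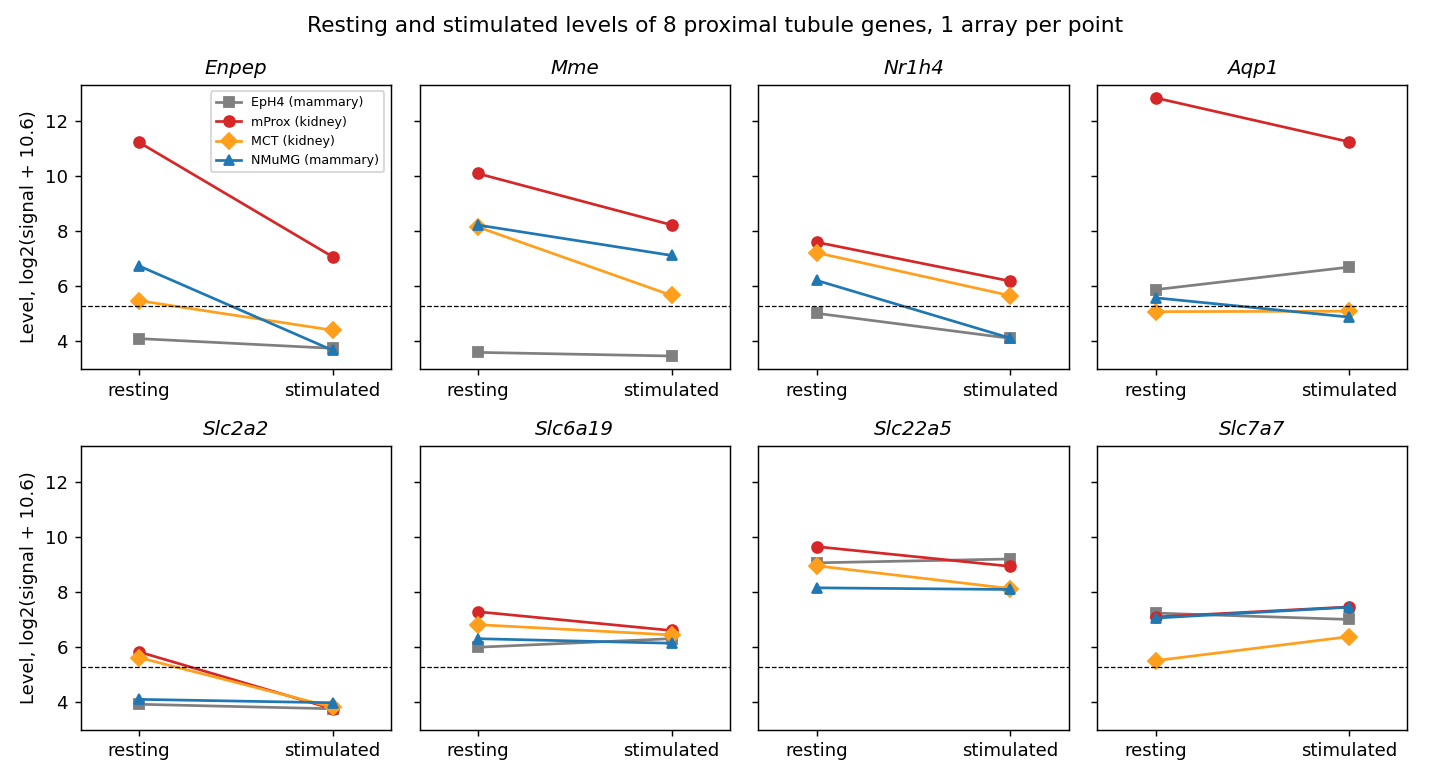
Level of 8 genes on the vertical axis, log2(signal + 10.6) after quantile normalization, in resting and stimulated cells, 1 point per array and 1 line per cell line, with the filter level of 5.27 dashed. Enpep, Mme and Nr1h4 slope down in mProx, MCT and NMuMG, Aqp1 is far above the filter level in mProx alone, and Slc2a2 reaches it in the 2 resting kidney arrays only.

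The windows from 250 bases before to 50 after the RefSeq transcription start (build GRCm38.p6) are shown for the genes that were at least 2-fold lower in both kidney lines after quantile normalization. They were searched on both strands for an HNF1 half-site, GTTAAT, an AP-1 site, TGANTCA, the SMAD palindrome, GTCTAGAC, and the E2-box bound by Snail and ZEB factors, CAGGTG. Capitals mark a match, and lower case marks the rest. The windows are Enpep at chr3:129332700-129332999, minus strand, Nr1h4 at chr10:89506609-89506908, minus strand, Slc2a2 at chr3:28697653-28697952, plus strand, and the second of 3 starts of Mme at chr3:63295622-63295921, plus strand.
Enpep: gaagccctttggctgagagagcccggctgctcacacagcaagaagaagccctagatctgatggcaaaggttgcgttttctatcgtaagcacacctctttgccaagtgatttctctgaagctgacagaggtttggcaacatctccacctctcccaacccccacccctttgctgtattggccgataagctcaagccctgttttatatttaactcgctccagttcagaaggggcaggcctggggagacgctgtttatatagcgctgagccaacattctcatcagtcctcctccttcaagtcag
Nr1h4: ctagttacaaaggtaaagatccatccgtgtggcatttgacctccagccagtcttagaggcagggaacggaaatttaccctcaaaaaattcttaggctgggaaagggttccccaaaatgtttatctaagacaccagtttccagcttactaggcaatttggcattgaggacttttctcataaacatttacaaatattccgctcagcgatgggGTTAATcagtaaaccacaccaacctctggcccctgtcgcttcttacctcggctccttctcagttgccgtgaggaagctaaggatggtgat
Slc2a2: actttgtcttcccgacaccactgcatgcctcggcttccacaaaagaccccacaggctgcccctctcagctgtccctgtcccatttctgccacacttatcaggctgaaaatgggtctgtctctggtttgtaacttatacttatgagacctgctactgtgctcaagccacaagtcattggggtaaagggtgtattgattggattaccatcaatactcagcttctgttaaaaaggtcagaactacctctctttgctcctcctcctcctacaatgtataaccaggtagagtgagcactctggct
Mme: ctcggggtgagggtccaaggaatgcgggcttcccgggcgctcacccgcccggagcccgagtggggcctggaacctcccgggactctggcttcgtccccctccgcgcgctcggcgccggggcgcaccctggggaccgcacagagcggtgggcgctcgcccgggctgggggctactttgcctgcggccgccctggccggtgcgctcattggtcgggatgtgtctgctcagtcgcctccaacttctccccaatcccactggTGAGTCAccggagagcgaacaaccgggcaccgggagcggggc

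Nr1h4 held 1 match, the HNF1 half-site, 40 bases before the start, and the second Mme window held 1 AP-1 match, 9 bases after the start, which the overlapping window of another start shares. Enpep, Slc2a2 and the first Mme window held no match to these letters. Of the 36 genes 33 had a window, 44 in all, and the half-site was in 11 of these 44 windows, or 25%, against 7.1% of 32851 windows of all genes. The AP-1 letters were in 3 of the 44, or 6.82% (7.81% of all windows), the E2-box in 9, or 20.5% (20.2%), and the SMAD palindrome in 0 (0.213%). A match is a description of the letters and not a bound site.

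**Figure D4:**
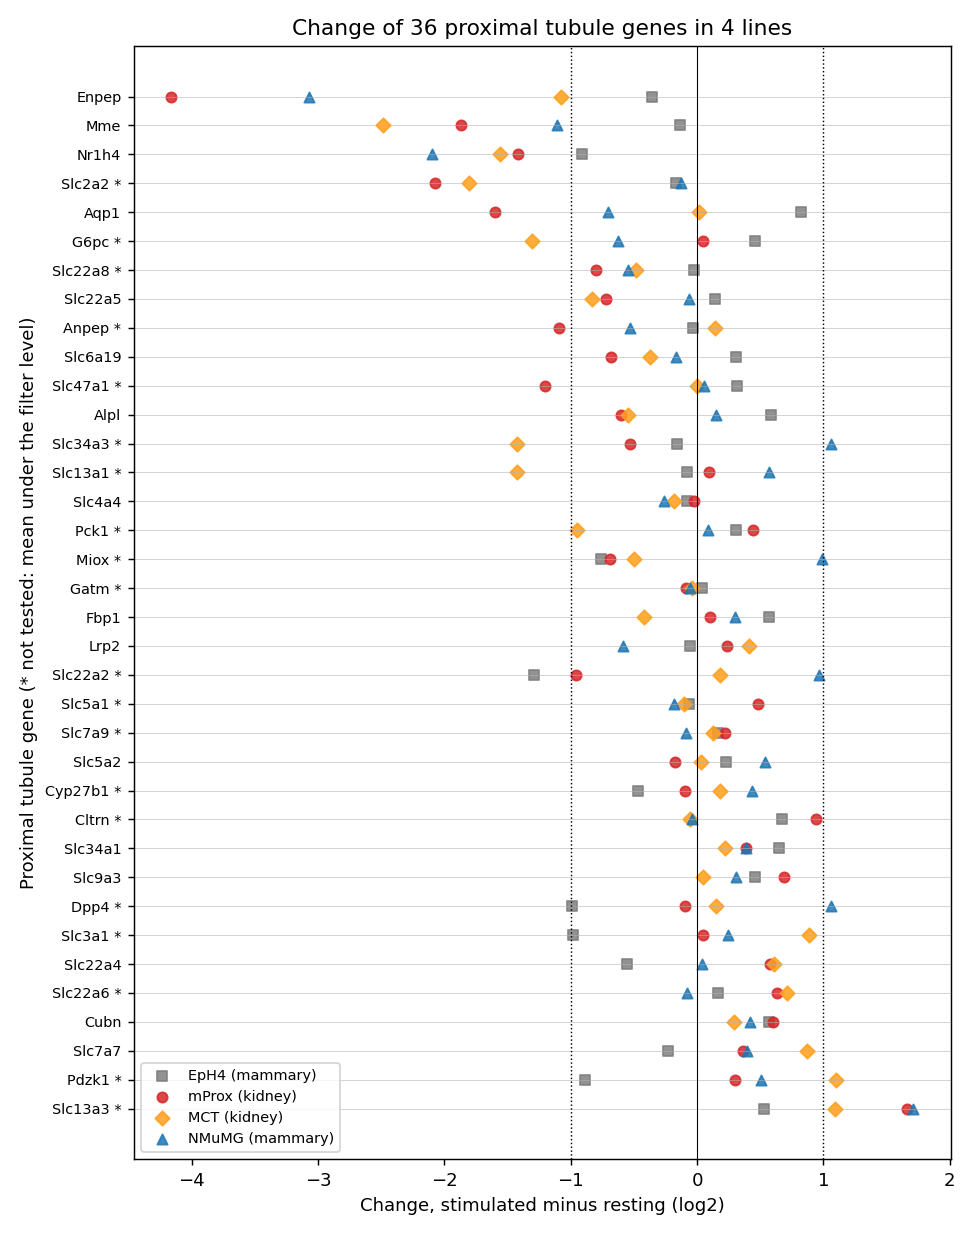
Log2 change, stimulated minus resting, of each of the 36 genes (rows, ordered by the mean over mProx, MCT and NMuMG) in each of the 4 lines, 1 point per line, with dotted lines at a 2-fold change and a star at genes that were not tested. Enpep, Mme, Nr1h4 and Slc2a2 are at the top left, Slc13a3 at the bottom right, and most other genes scatter around 0.

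In mProx, Aqp1 had a change of -1.60, to 11.23. The other lines differed in direction, at 0.82 in EpH4, 0.02 in MCT and -0.70 in NMuMG, with levels from 4.87 to 6.69 there, and MCT was at -0.10 on the values as deposited. Normalized levels were also summed on the linear scale, each with its added 10.6. This sum over the 36 genes in mProx went from 13355 to 4947, a fall in which Enpep and Mme had a part beside Aqp1. Slc47a1 and Anpep were also at least 2-fold lower in mProx, with changes of -1.20 and -1.09. Slc47a1 went from 5.69 to a dim value, whereas Anpep was dim on both mProx arrays, at 5.03 at rest. Of the 8 fibroblast markers, 6 were at or above the filter level in resting mProx (69% of all genes). In the other resting lines 2 were in MCT (70.5%), 5 in EpH4 (70.5%) and 4 in NMuMG (67.3%). On that linear scale the 8 summed to 2098 in resting mProx against 294.9 to 534.2 in the other resting lines. In stimulated mProx they summed to 652, against 329.9 to 776.8 in the other stimulated lines. Dcn, encoding the proteoglycan decorin, was the highest of the 8 in resting mProx, at 10.56, and was at 7.53 after stimulation. Lum, encoding lumican, was at 7.39 and 4.73. Col1a1, at 4.68 and 6.50, and Thy1, at 3.99 and 5.13, were dim at rest there. Their part in the mProx values was not tested. Fewer cells of a type and less RNA per cell cannot be told apart in such samples.

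Slc22a5 had log2 changes of -0.72 in mProx, -0.83 in MCT, 0.14 in EpH4 and -0.06 in NMuMG, where EpH4 and NMuMG were at -0.16 and 0.24 on the values as deposited. Its kidney response minus its mammary response was -0.81 with an SE of 0.23 and did not pass limma's test (adjusted p = 0.725). Its second probe set, 1421848_at, had changes of -0.66 in mProx, -0.19 in MCT, -0.21 in EpH4 and 0.04 in NMuMG, and the difference was smaller, at -0.34 (limma adjusted p = 0.959). Alpl, with changes of -0.60 in mProx, -0.55 in MCT, 0.58 in EpH4 and 0.15 in NMuMG, gave -0.94 (adjusted p = 0.837), and Mme -1.56 (0.725). These 3 were the only tested proximal tubule genes with an unadjusted p under 0.05 there, all lower in kidney (3.13% of all genes), and 0 were higher (2.8%). In that comparison 0 genes passed, against 754 at an unadjusted p under 0.05, so a difference in response between kidney and mammary lines is not shown for these genes. Slc6a19 had changes of -0.68 in mProx and -0.37 in MCT, and its second probe set of -1.55 and -1.08.

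Slc13a3, the dicarboxylate cotransporter, was at 3.77 in mProx, 4.27 in MCT, 4.54 in EpH4 and 3.97 in NMuMG at rest and at 5.43 in mProx, 5.36 in MCT, 5.07 in EpH4 and 5.68 in NMuMG after stimulation. Resting cells were dim in each line and the stimulated arrays of mProx, MCT and NMuMG were just above the filter level. Its other 3 probe sets did not share the pattern. Probe set 1438377_x_at had changes of -0.49 in mProx, 0.03 in MCT, 1.12 in EpH4 and -0.22 in NMuMG. Slc7a7, with log2 changes of 0.36 in mProx, 0.87 in MCT, -0.23 in EpH4 and 0.40 in NMuMG, was higher in 3 of 4 lines, and its second probe set in 4 of 4. Pdzk1, the scaffold of brush border transporters, reached the filter level only in resting EpH4 and in stimulated MCT, where it was higher by 1.10.

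Further proximal tubule genes, 65 measured of 70 listed, were tested in the same way. Of 32 tested, 0 passed limma's test in any of the 4 comparisons, and in the 3 lines 5 were lower (6.11% of all genes) and 1 higher (6.44%) at an unadjusted p under 0.05. The median difference of the tested ones was -0.08 in the 3 lines, against 0.01 over all genes. Cyp4b1, a fatty acid hydroxylase, was at 7.61 in mProx, 7.83 in MCT, 5.31 in EpH4 and 7.14 in NMuMG at rest and at 6.90 in mProx, 5.52 in MCT, 5.88 in EpH4 and 6.59 in NMuMG after stimulation. At rest it was lowest in EpH4, and the kidney lines and NMuMG were lower after stimulation. Slc17a1, an apical organic anion and phosphate transporter, was at 6.35 in mProx, 6.17 in MCT, 5.24 in EpH4 and 5.87 in NMuMG at rest and at 5.23 in mProx, 4.35 in MCT, 3.94 in EpH4 and 5.20 in NMuMG after stimulation, lower in 4 of 4 lines. Amn, Xpnpep2, Slc22a7 and Glyat, the others chosen by the fixed rule, had mean changes over the kidney lines of 1.31, -0.99, 0.96 and 0.72, with at least 1 dim array each in the kidney lines.

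Regulators of proximal tubule identity, 12 measured of 15 and 8 tested, gave 4 genes lower (6.11% of all genes) and 0 higher (6.44%) in the 3 lines at an unadjusted p under 0.05, and 0 passing limma's test. Hnf4a, a nuclear receptor that drives proximal tubule genes, was at 5.29 in mProx, 5.52 in MCT, 6.13 in EpH4 and 6.23 in NMuMG at rest, so neither kidney line was above a mammary line. Pax8, a kidney lineage factor, was at 10.90 in mProx, 9.66 in MCT, 5.78 in EpH4 and 5.25 in NMuMG at rest and at 10.02 in mProx, 8.99 in MCT, 5.87 in EpH4 and 4.55 in NMuMG after stimulation, far above the mammary lines in both kidney lines (limma adjusted p = 0.321). Ppargc1a, a coactivator of mitochondrial genes, was at 7.42 in mProx, 7.83 in MCT, 5.49 in EpH4 and 6.98 in NMuMG at rest and at 6.38 in mProx, 6.75 in MCT, 5.30 in EpH4 and 6.46 in NMuMG after stimulation. Vdr, the vitamin D receptor, had changes of -0.84 in mProx, -1.95 in MCT, 0.26 in EpH4 and -0.54 in NMuMG, lower in 3 of 4 lines. Maf had changes of -0.34 in mProx, -1.12 in MCT, 0.27 in EpH4 and -0.81 in NMuMG. Cebpa was dim on both mProx arrays and had a change of -1.01 in MCT.

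Like Pax8, Cdh16, the kidney-specific cadherin of tubules, was far higher in both kidney lines than in the mammary lines. It was at 12.23 in mProx, 10.80 in MCT, 4.24 in EpH4 and 5.33 in NMuMG at rest and 10.04 and 9.48 in stimulated mProx and MCT. Its resting difference of 6.73 did not pass limma's test (adjusted p = 0.321). In resting mProx, the line labelled proximal, Aqp1, Enpep, Mme and 2 of 3 Lrp2 probe sets were far above the filter level. Hnf4a and most transporters were near that level there. Of the 36 genes 16 reached it in mProx (69% of all genes), against 19 in the mammary line EpH4 (70.5%). Mme was also at 8.21 in resting NMuMG, a mammary line, and Enpep was at 6.73 there, above MCT. Of 19 measured distal, loop and collecting duct markers 8 were at or above the filter level at rest in each kidney line and in EpH4, and 6 in NMuMG. Of 4 podocyte markers 3 were at that level in each kidney line, of 15 mammary markers 5 in mProx and 7 in MCT, of 5 endothelial markers 1 and 3, and of 5 leukocyte markers 3 in each, against 69% of all genes in mProx and 70.5% in MCT. Injury markers, 16 measured of 18 and 14 tested, gave 0 passing, with 4 higher (6.44% of all genes) and 3 lower (6.11%) in the 3 lines at an unadjusted p under 0.05. Krt8 and Krt18, keratins of simple epithelia, were higher by 1.28 and 1.33 in mProx and by 0.66 and 0.98 in MCT. They were also higher in the mammary lines, by 0.29 and 0.39 in EpH4 and by 0.62 and 0.28 in NMuMG. Krt19 and Krt20 had changes of 2.16 and 2.20 in mProx and 0.55 and 0.31 in MCT, and Krt19 had -0.59 in NMuMG. Ccl2 went the other way in the kidney lines, at -0.71 in mProx and -1.33 in MCT. Lcn2, an iron-carrier protein released by injured tubules, was dim in mProx and had changes of -3.19 in MCT and -2.99 in NMuMG.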

How the data were processed

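Total RNA of 4 resting and 4 stimulated cell line samples had been hybridised to 1-colour arrays. Per the submitters' processing notes, the deposited intensities, linear signals of 45101 probe sets, came from MAS5. The version and scaling of MAS5: not given in the sources used here. The 64 control probe sets were left out, 10.6 (the 25th percentile of positive signals) was added, and log2 values were quantile-normalized, since array medians differed by 0.43. Symbols came from the platform annotation (34945 probe sets with 1 symbol, 932 with several, 9160 with none), of which 34741 matched assembly GRCm38.p6 by gene identifier. Genes reaching the 40th percentile were fitted with limma 3.58.1 (R 4.3.3, lmFit, eBayes with intensity trend) and adjusted by Benjamini-Hochberg at 0.05. The line was a block, since both arrays of a line deviated together from the group means (correlations 0.812 to 0.905 over genes). The resting comparison had no block. The number of cultures per array is not stated, and a p-value here reflects variation among these lines, not among cultures of a line. The eBayes step also draws each gene's variance toward a trend over all genes tested. A p-value is thus not a measure of a gene's own spread over the lines, and it can be small where that spread is wide. The scripts were tested on simulated data.

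The members and lists were chosen with earlier results of these data known. Values are printed for each gene at the filter level in a resting kidney array, 2-fold or more different in 1 direction in both kidney lines or in mProx, MCT and NMuMG, or past a test. From each further list up to 6 genes were eligible, by a pass and then by the change in kidney lines. Alternatives varied the normalization, offset, filter, probe set, trend, block and lines. The depth of an array is its number, here 1 per line and condition, which limits the precision. Some markers were not analysed here.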

Additional observations from a re-analysis of the deposited data

Results flagged for a closer look

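For each gene printed with all its values, the 4 resting and the 4 stimulated levels were checked for 1 array far from the other 3, which made 48 groups. With chance flagging about 5% of groups, 3 were flagged. Aqp1 in resting mProx, at 12.84, was far above the nearest line, at 5.87. Slc7a7 in resting MCT, at 5.49, was below the nearest line, at 7.04. Its second probe set, 1447181_s_at, did not set MCT apart, with 6.06 in resting MCT and 6.10 in resting mProx. Slc4a4 in stimulated MCT, at 7.26, was below the nearest line, at 8.28.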

How the results depend on the processing

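The number of genes passing limma's test was sensitive to the processing. On the values as deposited it was 238 for the response in 4 lines, 216 in 3 lines, 21 for the kidney minus the mammary response and 6 for resting kidney against mammary lines, with 3 of the proximal tubule genes in each of the first 2. Centring arrays on their medians gave 24 and 85 for the responses in 4 and 3 lines, with 0 and 2 proximal tubule genes. For the 4 lines an offset of 1 gave 1 and of 50 gave 8. For the 3 lines an offset of 50 gave 2, no filter 0, a filter at the 60th percentile 21, the mean of all probe sets 8, no intensity trend 0 and no replicate block 0, where lines and their pairing are ignored. Leaving out 1 line in turn gave 0 to 13 genes for the 4 lines (13 without EpH4), 12 to 63 for the 3 lines (27 without MCT, 63 without NMuMG) with 0 to 1 proximal tubule genes, and 0 to 35 for the kidney minus the mammary response (17 without mProx, 35 without MCT). The cause of these shifts was not tested. Avoiding probe sets marked _x_at, an alternative chosen after seeing the data, gave 16 in the 3 lines. Of 17 tested differences of proximal tubule genes, those with an unadjusted p under 0.05 or a 2-fold size, the 1 that reversed was Aqp1 at rest, at -0.65 without mProx and up to 7.12 without MCT. The mean change over mProx, MCT and NMuMG was also followed, without a test, for 24 genes. Over the alternatives 15 such results moved by at least the SD over the lines and 225 did not. Slc13a3 changed sign, from 1.49 to -0.38 with an offset of 1, and Lrp2 went from 0.02 to -0.53 with an offset of 50. The probe set of a gene was chosen again under each offset. With 1 array per line and condition, and signals near background for most of these genes, small differences were not detectable.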

Other observations

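Csn3, encoding the milk protein kappa-casein and listed among the mammary markers, was at 5.23 in mProx, 9.43 in MCT, 4.08 in EpH4 and 5.10 in NMuMG at rest and at 8.89 in mProx, 10.63 in MCT, 5.44 in EpH4 and 5.46 in NMuMG after stimulation. It was thus higher in the kidney line MCT than in either mammary line, and in mProx the stimulated array was 3.66 above the resting one. Dab2, the adaptor that binds the tail of megalin, was at 11.72 in mProx, 10.91 in MCT, 7.37 in EpH4 and 9.26 in NMuMG at rest, and Acy3, a proximal tubule aminoacylase, was at 8.46 in mProx, 8.44 in MCT, 4.65 in EpH4 and 5.43 in NMuMG. Both kidney lines were above both mammary lines for these 2 genes, which were picked after their values were seen.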
